A study of Mus musculus with 6 samples.

Results

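Mouse genes named Zfp followed by a number encode zinc finger proteins, and the probe sets of these genes were followed here in embryoid body cells sorted on day 5 of differentiation. Members were all probe sets whose gene name in the authors' deposited comparison table is Zfp plus digits, Zfp42 left out, with a flag pass value of 5 or 6, read as detection on 5 or 6 of the 6 arrays. There were 185 such probe sets for 116 gene names, out of 45037 probe sets in the value table that are not array controls. Both groups came from CGR8 mouse embryonic stem cells differentiated in embryoid bodies. One group carried both CXCR4 and FLK-1 on the surface (double positive) and the other carried neither (double negative), with 3 samples each, collected independently and hybridised to 1 Affymetrix Mouse 430 2.0 array per sample. The series text calls them biological replicates and also speaks of RNA pools, without saying what was pooled. The question was which transcripts differ between the fractions.

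Most mouse Zfp genes encode C2H2 proteins, in which zinc ions hold short folded fingers that can read DNA bases, with several in a row. Many of them also carry a KRAB domain, which binds the corepressor TRIM28 and through it the histone methyltransferase SETDB1 and HP1 proteins, and in embryonic stem cells this machinery is known for silencing retroelements and protecting imprints. Others bind RNA, take part in mitosis or act as ubiquitin ligases, and several old Zfp names have since been replaced.

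The RefSeq gene table (GRCm38.p6) kept 88 of the 116 names and gave 28 a new symbol, covering 51 of the probe sets. Examples are Zfp294, now Ltn1, a ubiquitin ligase of stalled ribosomes, Zfp162, now the splicing factor Sf1, Zfp289, now the Arf GTPase activator Arfgap2, and Zfp161 and Zfp238, now Zbtb14 and Zbtb18. The names below are those of the deposited table. Before the flag rule there were 243 probe sets for 144 names, with 154 at a flag of 6, 31 at 5, 28 at 4, 11 at 3 and 19 at 2. If the flag counts arrays with detection, a flag of at least 5 needs at least 2 such arrays in both groups. On that reading no member entered through 1 group alone, but no label states the reading. The 31 probe sets at a flag of 5 had a median log2 difference of -0.14 (range -1.40 to 0.59), and the 28 just outside, at a flag of 4, had a median of -0.10 (range -1.21 to 0.58).

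A run of 4 neighbouring genes on chromosome 17 consisted of members, in the order Zfp54, Zfp51, Zfp53 and Zfp52, with no other protein-coding gene starting between them in RefSeq. The promoter windows of Zfp54, Zfp53 and Zfp52 are shown because they resemble one another while the genes differed in their values: Zfp54 and Zfp52 were among the lower members whose groups did not overlap, and the groups of Zfp53 overlapped. Each runs from 250 bases before to 50 bases after the RefSeq transcription start (GRCm38.p6, plus strand), and capitals mark AGCCTGAGAC, the longest word of 6 or more letters found in all 3. The windows are chr17:21422977-21423276 for Zfp54, chr17:21488738-21489037 for Zfp53 and chr17:21535289-21535588 for Zfp52.
Zfp54: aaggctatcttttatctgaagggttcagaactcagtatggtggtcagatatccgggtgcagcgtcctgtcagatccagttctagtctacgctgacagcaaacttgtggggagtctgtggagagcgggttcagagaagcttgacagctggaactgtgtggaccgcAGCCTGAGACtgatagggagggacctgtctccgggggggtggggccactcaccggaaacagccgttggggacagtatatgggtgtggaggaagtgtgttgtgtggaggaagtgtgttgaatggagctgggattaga
Zfp53: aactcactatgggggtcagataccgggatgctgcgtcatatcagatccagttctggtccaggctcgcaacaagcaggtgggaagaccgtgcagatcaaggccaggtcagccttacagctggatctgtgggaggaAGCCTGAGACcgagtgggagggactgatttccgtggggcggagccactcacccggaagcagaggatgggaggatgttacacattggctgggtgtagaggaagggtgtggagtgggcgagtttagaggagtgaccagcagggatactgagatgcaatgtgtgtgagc
Zfp52: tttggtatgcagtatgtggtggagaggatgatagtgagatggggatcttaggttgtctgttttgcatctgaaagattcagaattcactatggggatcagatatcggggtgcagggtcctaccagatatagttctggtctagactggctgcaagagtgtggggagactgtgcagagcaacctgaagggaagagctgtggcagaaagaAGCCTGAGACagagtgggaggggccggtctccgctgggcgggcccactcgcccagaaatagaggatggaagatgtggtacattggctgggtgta

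Over aligned positions the Zfp54 window was 74.4% identical to that of Zfp53 and 74.8% to that of Zfp52, and the windows of Zfp53 and Zfp52 were 78.8% identical. The share of G or C was 54.3%, 57.0% and 52.3% for Zfp54, Zfp53 and Zfp52. The letters CCGGAA, searched on both strands, occur in the Zfp54 and Zfp53 windows and not in that of Zfp52. Over the 100 members with a promoter window in the RefSeq table, 43.0% held CCGGAA, against 15.1% of all 27025 promoters of that length. The GC box GGGCGG was found in 53.0% of the members' windows and 35.6% of all, and CCAAT in 44.0% and 37.8%. The 27025 promoters were not limited to genes passing the flag rule, as the members were, so the shares are no like comparison. The motif matches were not related to any measured value.

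The deposited values are linear ratios of each probe set to its median over the 3 double-negative arrays, so they hold no absolute level. Cxcr4 and Kdr, the genes of the sorted proteins, were 5.55-fold and 6.17-fold more abundant in double-positive cells, without overlap between groups, although the limma adjusted p over all probe sets was 0.451 and 0.73. Of 10 listed pluripotency genes, 7 had a probe set with a flag of 5 or 6, and 7 of these 7 were lower without overlap, with a median log2 difference of -1.30. Their mean log2 ratio was at most -1.48 on any double-positive array and ran from -0.30 to 0.29 on the double-negative ones. All 11 probe sets of mesoderm and cardiac genes had higher means, with a median of 1.60, and all 6 of epithelial genes had lower means, with a median of -1.38. The 8 of endothelial and blood genes were split, with 6 higher means and 2 lower ones, both of Hbb-y (-2.66 and -3.92). Of 3 for extraembryonic endoderm genes 1 was higher and 2 lower, with a median of -0.10, and the 1 for a neural gene, Nes, stood at 0.13. Fewer cells of a type and less RNA per cell cannot be told apart in such bulk samples.

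The replicate 1 arrays of both groups stood apart, for the Zfp probe sets and across the array. The median log2 ratio over the 185 members was -0.56 in double-positive replicate 1 and -0.32 in double-negative replicate 1, and between 0 and 0.06 in the other 4 arrays. Double-positive replicate 1 held the lowest value of 43.2% of the members and double-negative replicate 1 that of 35.7%. Over all listed probe sets with a flag of 5 or 6 these shares were 33.3% and 42.2%, and the medians were -0.45 and -0.46. Control probe sets for the 3′ and 5′ ends of Gapdh and beta-actin moved with replicate 1 too. Their log2 3′ minus 5′ difference, relative to the double-negative median, was 2.21 and 1.84 in double-negative replicate 1, 0.66 and 0.36 in double-positive replicate 1, and between -0.17 and 0.07 elsewhere. The part of RNA quality in the results below was not tested, and the counts without overlap and the largest differences are given with and without replicate 1.

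**Figure D1:**
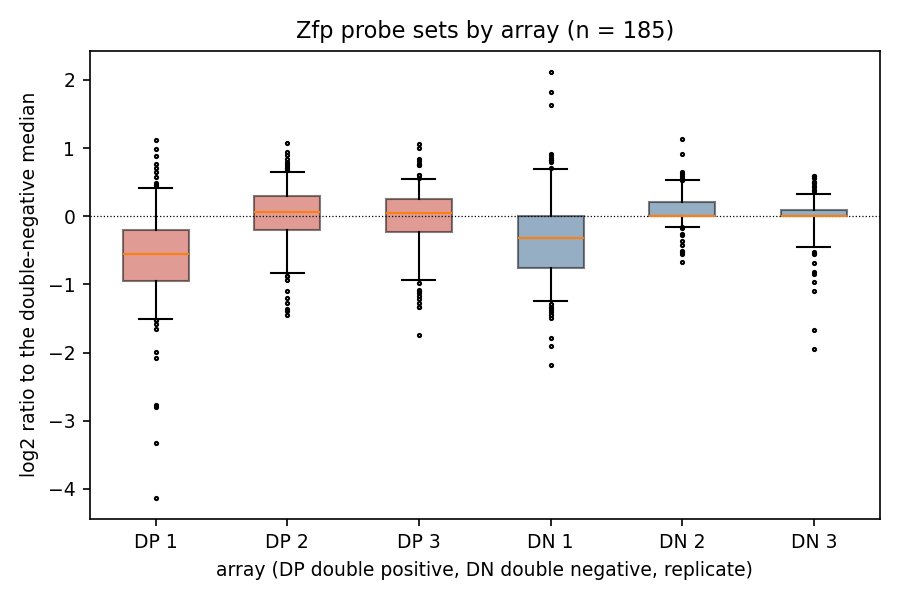
Box plots of the log2 ratio to the double-negative median for the 185 Zfp probe sets on each array, with boxes from the lower to the upper quartile, the median as a line, whiskers at the 5th and 95th percentiles and points beyond. The medians of the replicate 1 arrays, -0.56 and -0.32, lie below those of the other 4 arrays.

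As a family the Zfp probe sets differed little between the fractions. Their median log2 difference, double positive minus double negative, was -0.04, with quartiles of -0.26 and 0.13. A lower mean was seen for 100 (54.05%) and a higher one for 85 (45.95%). Of the listed probe sets with a flag of 5 or 6, 45.9% had a lower and 54.1% a higher mean. Over all 16753 listed probe sets with the same flags the median was 0.04, and over all 45037 it was 0.05. The sign of the members' median depended on single arrays, and leaving out double-positive replicate 1 gave 0.16, double-negative replicate 2 gave 0.08 and double-negative replicate 1 gave -0.22. The median over all 45037 probe sets moved in the same directions, to 0.15, 0.08 and -0.07 in that order. A difference smaller than 1.5-fold was seen for 163 members (88.1%, against 83.1% of the listed probe sets with these flags). No member was 2-fold higher, where 1.62% of those probe sets were, and 9 members were at least 2-fold lower (4.86%, against 2.99%). The largest difference upward was 0.62 and the largest downward -1.68.

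**Figure D2:**
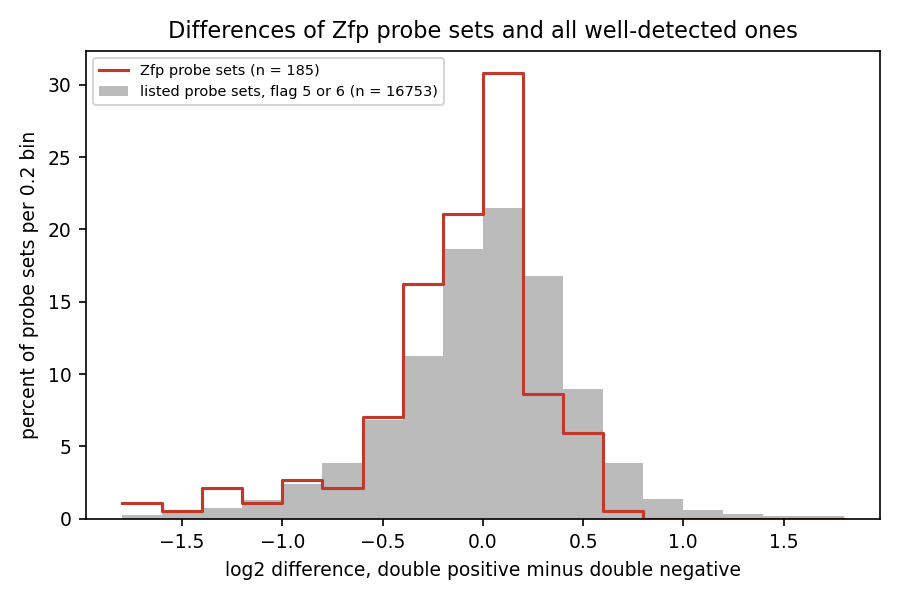
Share of probe sets per log2 difference bin of 0.2 for the 185 Zfp probe sets (line) and for the 16753 listed probe sets with a flag of 5 or 6 (bars), drawn from -1.8 to 1.8. The Zfp probe sets reach -1.68 on the lower side and stop at 0.62 on the higher side.

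In limma's moderated test over all 45037 probe sets 0 Zfp probe sets passed the Benjamini-Hochberg threshold of 0.05, as did 0 of all probe sets (percent called 0.0), and the smallest adjusted p of a member was 0.68. Without adjustment, 6 members were lower and 0 higher with p under 0.05. That is 3.24% and 0.0% of the members, where 1.67% and 0.824% of the listed probe sets with these flags were called lower and higher. The authors' deposited table also gives p under 0.05 for 6 members, all lower, of which 2, the Zfp52 probe set and one of Zfp597, were among the 6 of limma. The others there are Zfp291 with both probe sets, Zfp292 and Zfp97, and neither Zfp462 probe set is called. Of listed probe sets with these flags, the authors' deposited table calls 1.75% lower and 1.42% higher. The groups did not overlap for 18 members on the lower side (9.73%) and 4 on the higher side (2.16%), where 4.54% and 4.62% of the listed probe sets did not. Without both replicate 1 arrays the counts were 39 lower (21.1%) and 37 higher (20.0%), near the 20.1% and 24.1% of the listed probe sets. Without double-positive replicate 1 alone they were 20 lower and 29 higher (10.8% and 15.7%, against 6.31% and 20.8%), so there the higher members outnumbered the lower ones. Without double-negative replicate 1 they were 37 lower and 10 higher (20.0% and 5.41%, against 17.6% and 6.84%).

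**Figure D3:**
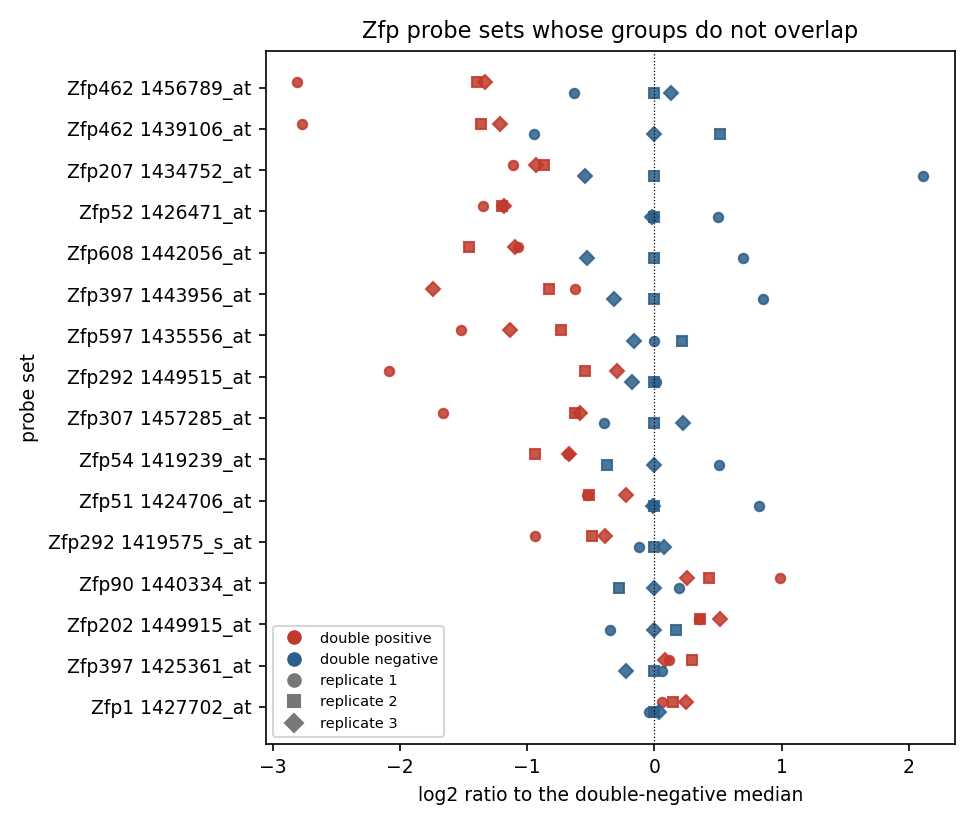
Log2 ratio to the double-negative median for the 12 lower Zfp probe sets with the largest differences and the 4 higher ones whose groups do not overlap, 1 row per probe set and 1 point per array, with colour for the group and shape for the replicate. Zfp462 has the largest differences on the lower side, at -1.68 and -1.64, and on the higher side Zfp90 leads with a difference of 0.59.

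Zfp462, a chromatin-associated C2H2 protein linked to the maintenance of mouse embryonic stem cells, had the 2 largest differences. Its first probe set had ratios of 0.143, 0.380 and 0.397 in the double-positive samples, in replicate order, and of 0.646, 1 and 1.093 in the double-negative ones. It was 3.20-fold lower (log2 difference -1.68, SE 0.52, 95% confidence interval -2.90 to -0.46, limma adjusted p = 0.767). The second stood at 0.147, 0.390 and 0.431 against 0.519, 1.434 and 1, or 3.11-fold lower (-1.64, SE 0.59, adjusted p = 0.859). Every double-positive value lay below every double-negative one for both probe sets, and replicate 1 gave the lowest value within each group. Without both replicate 1 arrays the differences were -1.43 and -1.55. Adding a pseudocount shrinks log2 differences by construction, and took that of the first probe set to -0.86 with 0.437 and to -0.37 with 1.75 added. Pluripotency genes moved the same way in these samples, as given above; Zfp42, which encodes the stem cell marker REX1 and is no member, stood at 0.640, 0.289 and 0.490 against 1.051, 1 and 0.856 (-1.10, SE 0.42, adjusted p = 0.883).

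Of the 4 neighbours on chromosome 17, Zfp52 had the largest difference. It stood at 0.393, 0.437 and 0.442 in double-positive and at 1.412, 1 and 0.988 in double-negative samples, 2.64-fold lower (-1.40, SE 0.35, 95% confidence interval -2.24 to -0.56, limma adjusted p = 0.68, the smallest among members). The double-positive arrays lay close together, and the gap to the double-negative ones was wider than the range within either group. Zfp54 stood at 0.626, 0.521 and 0.629 against 1.422, 0.774 and 1 (-0.81, SE 0.39, adjusted p = 0.95). Zfp51 stood at 0.694, 0.701 and 0.859 against 1.771, 1 and 0.991 (-0.69, SE 0.40, adjusted p = 0.974). Zfp53, which lies between Zfp51 and Zfp52, overlapped, at 1.163, 0.935 and 1.011 against 1.578, 0.892 and 1 (-0.12, SE 0.39). Double-negative replicate 1 was the highest array for all 4 genes, and without it the differences were -1.23, -0.58, -0.41 and 0.13 for Zfp52, Zfp54, Zfp51 and Zfp53. These genes are close paralogs, and cross-hybridisation between them was not tested.

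Adjacent members formed 6 runs in all, holding 16 genes. Zfp454 and Zfp2 on chromosome 11 had log2 differences of -0.59 and -0.37, and Zfp96 and Zfp307 on chromosome 13 had -0.11 and -0.90. Zfp93, Zfp61 and Zfp94 on chromosome 7 stood at -0.11, 0.01 and -0.33, and Zfp26 and Zfp426 on chromosome 9 at -0.26 and 0.06. The run of Zfp397, Zfp35 and Zfp191 on chromosome 18 had means over probe sets of -0.33, -0.02 and 0.07. None of these runs had a member past the threshold over all probe sets.

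Zfp608, a relative of the cohesin-loader cofactor Zfp609, stood at 0.475, 0.365 and 0.469 against 1.619, 1 and 0.692, 2.40-fold lower (-1.26, SE 0.43, limma adjusted p = 0.835). Zfp597, whose human counterpart ZNF597 is imprinted, stood at 0.348, 0.600 and 0.456 against 1, 1.162 and 0.893, 2.22-fold lower (-1.15, SE 0.38, adjusted p = 0.812). Neither overlapped between groups, and without both replicate 1 arrays they stood at -1.01 and -0.96. A second Zfp597 probe set was at -0.20 with overlapping groups. Zfp307, now Zkscan3, known in human cells as a repressor of autophagy genes, stood at 0.317, 0.649 and 0.668 against 0.762, 1 and 1.170 (-0.90, SE 0.44, adjusted p = 0.964), and at -0.72 without both replicate 1 arrays.

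Zfp292, a large zinc finger protein, was lower in double-positive cells in all 4 of its probe sets, with differences from -0.92 to -0.46, and 3 of the 4 did not overlap between groups. The probe set with the largest difference stood at 0.236, 0.687 and 0.815 against 1.011, 1 and 0.884 (-0.92, SE 0.53, limma adjusted p = 0.974). Double-positive replicate 1 was the lowest array by far, and without both replicate 1 arrays the difference was -0.33. The other lower members without overlap were both probe sets of Zfp291, now Scaper (-0.50 and -0.23), a second probe set of Zfp207 (-0.49), Zfp180 (-0.47) and Zfp97 (-0.40).

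Zfp207 encodes BuGZ, a microtubule-binding protein that loads BUB3 onto kinetochores, and its 6 probe sets did not move alike. The lowest 3 had differences of -1.50, -1.20 and -1.14 and the others ranged from -0.49 to 0.17. The first of these stood at 0.464, 0.547 and 0.524 against 4.332, 1 and 0.687 (SE 0.69, limma adjusted p = 0.936). In the 3 probe sets, double-negative replicate 1 stood at 4.332, 3.099 and 3.518, above every other array, and without it the differences were -0.70, -0.47 and -0.25. At the probe set with the difference of 0.17 the same array was the lowest, at 0.573. That array also had the largest 3′ minus 5′ difference of the control probe sets, and the part of RNA quality was not tested.

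Of the 116 genes 39 had several member probe sets, and in 23 of them the probe sets pointed both ways. All probe sets were lower in 11 genes and higher in 5, and the median span from the lowest to the highest probe set of a gene was 0.36. After Zfp207, with a span of 1.66, the widest was Zfp397, a SCAN zinc finger gene. One of its probe sets stood at 0.649, 0.563 and 0.300 against 1.804, 1 and 0.801 (-1.24, SE 0.49, limma adjusted p = 0.889), below the double-negative range on every array, with a difference of -1.12 without both replicate 1 arrays. A further one stood at 1.083, 1.226 and 1.060 against 1.045, 1 and 0.856, above that range (0.22, SE 0.34). Zfp148, known as ZBP-89, a GC-box-binding factor, had 6 probe sets between -0.29 and 0.49, and Zfp91, an atypical ubiquitin ligase, 4 between -0.40 and 0.15. Zfp191 (now Zfp24) ranged from -0.30 to 0.27 and Zfp289 (Arfgap2) from -0.17 to 0.16, each over 4 probe sets.

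**Figure D4:**
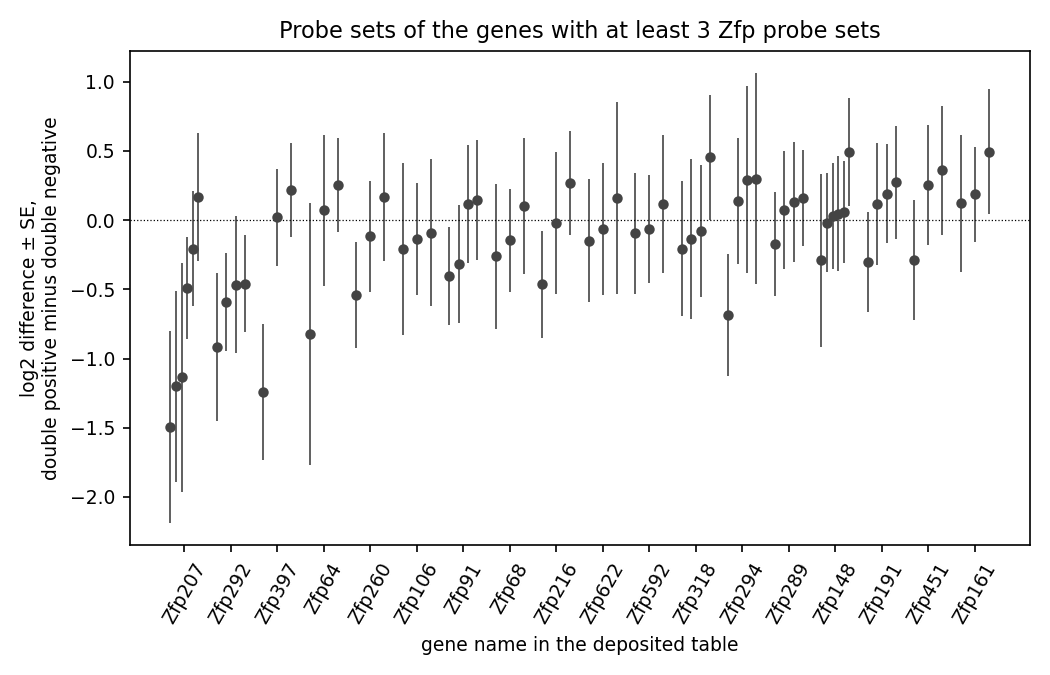
Log2 difference, double positive minus double negative, with its SE (bars) for every member probe set of the 18 genes with at least 3, genes ordered by their mean. The Zfp207 probe sets spread from -1.50 to 0.17, and all 4 of Zfp292 lie below 0.

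On the higher side differences were small. The largest, 0.62 (SE 0.66), was at a probe set of Zfp295, now Zbtb21, whose groups overlapped at 0.635, 1.872 and 2.086 against 0.445, 1.529 and 1 and whose other probe set stood at -0.63. Zfp90, a KRAB protein known to bind the repressor REST, had 1 probe set at 1.980, 1.347 and 1.193 against 1.144, 0.823 and 1 (0.59, SE 0.38, limma adjusted p = 0.979). Its other probe set had the smallest difference of all members, at 0.765, 0.864 and 1.287 against 0.649, 1 and 1.310. Zfp202, whose human counterpart represses genes of lipid metabolism, stood at 1.276, 1.282 and 1.428 against 0.786, 1.125 and 1 (0.47, SE 0.35, adjusted p = 0.984). Zfp1 stood at 1.043, 1.105 and 1.187 against 0.972, 1 and 1.024, a difference of 0.15 (SE 0.33). Without both replicate 1 arrays Zfp90 stood at 0.48 and Zfp202 at 0.35. Of the 4 higher members without overlap only Zfp90 reached 1.5-fold. Among the members closest to 0 were also Zfp553 (0.01) and Zfp61 (0.01).

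Members were also read by role. Of 11 listed genes linked to pluripotent cells 5 had member probe sets, 9 in all, and apart from Zfp462 they lay between -0.23 and 0.09. Zfp296, a KLF4 partner, stood at -0.23 (SE 0.43), a probe set of Zfp281, a factor that restrains Nanog, at -0.11 (SE 0.46), and one of Zfp143, a promoter factor found at chromatin loops, at 0.09 (SE 0.53). Of 12 listed KRAB genes for imprints and retroelements, 1 had a member probe set, Zfp37 (-0.20, SE 0.39). Zfp423, a SMAD and EBF partner, was uneven, at 0.0572, 1.736 and 1.049 against 0.395, 1.406 and 1 (-0.80, SE 1.26), with both replicate 1 arrays lowest and a difference of 0.19 without them. Its paralog Zfp521 stood at 0.13 (SE 0.63) and Zfp503, a NET family repressor, at 0.10 (SE 0.35).

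The 20 probe sets of RNA- and ribosome-linked members had a median of -0.08, with 12 lower and 8 higher means. The probe sets of Zfp294 (Ltn1) ran from -0.69 to 0.30 and those of Zfp318, known for control of immunoglobulin D transcripts in B cells, from -0.21 to 0.45. One probe set of Zfp162 (Sf1) stood at -0.29 and Zfp598, a ubiquitin ligase for collided ribosomes, at -0.28. The 18 for promoter factors had a median of 0.04 with 10 higher and 8 lower means. Their largest differences by gene were 0.50 for Zfp161 (Zbtb14), 0.49 for Zfp148, 0.43 for Zfp238 (Zbtb18) and -0.34 for Zfp263. Of the listed probe sets with a flag of 5 or 6, 1.67% were lower at an unadjusted limma p under 0.05. Lower without overlap were 4.54% of them, and 2.99% were at least 2-fold lower. Among 7 probe sets for chromatin-linked members, 2 were lower at that p and without overlap, both of the single gene Zfp462 (-1.68 and -1.64). Of the rest Zfp644, a partner of the G9a and GLP methyltransferases, stood at -0.31, a probe set of Zfp592 at 0.12 and Zfp512 at 0.03, and the median was -0.10. The 23 for ubiquitin and mitosis had a median of -0.10, and 3 were at least 2-fold lower, all of Zfp207 as given above, while 2 had groups without overlap, also of Zfp207. A probe set of Zfp294 stood at -0.69 and one of Zfp216 (Zfand5) at -0.46. Over all 185 members, 50 changed sign without both replicate 1 arrays, and the smaller values named here include such members.

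The corepressor genes through which KRAB zinc finger proteins act were examined too. Of 26 listed genes 25 had 63 probe sets with a flag of 5 or 6. In limma 0 of these 63 passed the threshold and 1 had an unadjusted p under 0.05, lower, where 1.67% of listed probe sets with these flags did, and the median was 0.03, with 33 higher and 30 lower means. Trim28, the scaffold of the complex, stood at 0.327, 1.138 and 0.900 against 0.323, 1.155 and 1 in 1 of its probe sets (-0.05, SE 0.68). Both replicate 1 arrays were low and the groups overlapped. Setdb1, which methylates histone H3, stood at -0.33 (SE 0.55). The lowest was Atf7ip2, a relative of the SETDB1 partner Atf7ip, at 0.269, 0.443 and 0.557 against 0.941, 1 and 1.193 (-1.36, SE 0.41, limma adjusted p = 0.751). Its groups did not overlap, nor did those of 1 probe set of Atrx, a chromatin remodeller (-0.83, SE 0.42). The other Atrx probe sets overlapped, with differences from -1.10 to 0.22. In all, 2 of the 63 were lower without overlap and 0 higher, where 4.54% and 4.62% of listed probe sets with these flags were.

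By comparison, 6 Zbtb probe sets with the same flags had a median of 0.12 (-0.16 to 0.32 with single arrays left out) and 8 probe sets of Zfp names with a letter after the number had -0.02 (-0.33 to 0.18). Among the members themselves, the 51 probe sets of renamed genes had a median of 0.03 and the 134 with their name kept -0.06. The 9 members at least 2-fold lower, all 9 of them lower also without both replicate 1 arrays, belonged to genes whose Zfp name was kept. Without those arrays the Zfp207 probe sets among the 9 stood at -0.63, -0.51 and -0.35 and that of Zfp597 at -0.96. These were then less than 2-fold lower, and the others stayed at least 2-fold lower. None of these differences between sets was tested.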

How the data were processed

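Total RNA of 6 sorted samples was hybridised to Affymetrix Mouse 430 2.0 arrays, per the labels. The deposited value table holds linear ratios, each probe set divided by its median over the 3 double-negative arrays: that median is 1 for all 45037 probe sets other than 64 controls. How probes were summarised and arrays scaled is not given in the sources used here. A deposited comparison table by the authors gives a fold change, a p-value and, per the file headers, a flag pass value, a whole-number score from 2 to 6.

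No pseudocount was added before log2, and differences were fitted with limma 3.58.1 (R 4.3.3; lmFit, eBayes, two-sided, Benjamini-Hochberg over all 45037 probe sets, threshold 0.05). SE and intervals are from that fit, n = 3 per group. The script was tested on simulated data. Alternatives were the replicate block, pseudocounts of 0.437 and 1.75, median centring, quantile normalization, other sets of probe sets, variance models, array weights and arrays left out. Members and gene lists were chosen with earlier results of these data known. Named were the 12 largest differences each way without overlap, up to 6 genes with at least 3 probe sets, up to 4 genes per role list and the 4 members nearest 0; other names were chosen after their values were seen.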

Additional observations from a re-analysis of the deposited data

How the results depend on the processing

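In every alternative fitted, 0 of all probe sets, 0 Zfp probe sets, 0 KRAB corepressor probe sets and 0 of the 2 sort genes passed the adjusted threshold. The smallest adjusted p of a member ranged from 0.0766, on probe sets with flags of 5 or 6 with the replicate block, to 1. Whether replicate numbers pair the samples was not settled. Deviations of same-numbered arrays correlated at 0.257, 0.139 and 0.0552 for replicates 1 to 3, and those of unlike-numbered arrays at -0.20 to 0.09. For replicates 1 and 2 the same-numbered array of the other group correlated highest, and for replicate 3 it did not. With the replicate block alone 8 members were lower and 0 higher at an unadjusted p under 0.05 (3.11% and 2.03% of listed probe sets with flags of 5 or 6), and with the block on flags of 5 or 6 there were 13 lower and 3 higher (7.83% lower and 7.0% higher over the probe sets fitted). The lower count of 6 became 1 with trended, robust variances and 3 after quantile normalization. It became 9 in a fit on flags of 5 or 6 only and 8 in a fit on the listed probe sets only. With single arrays left out it was 3 to 8. Smaller sets gave other counts. With a mean over the probe sets of a gene, 3 of 116 genes were lower, where 1289 of all 44968 rows fitted were. In the main fit, 3 of the 154 members with a flag of 6 were lower, which is a part of the 6 and no refit. The lower count over all probe sets fitted moved too. It was 1292 of 45037 in the main fit, 470 with trended, robust variances and 758 after quantile normalization. In the fit on flags of 5 or 6 only it was 445 of 16753, and on the listed probe sets only 787 of 22526. Members without overlap were 10 lower and 0 higher after quantile normalization, and 11 and 2 over gene means (where 64 means were lower and 52 higher). The matching shares over the listed probe sets are not given here for these settings. Without both replicate 1 arrays, members without overlap were 39 lower and 37 higher (20.1% and 24.1% of the listed probe sets). Of the 154 members with a flag of 6, 15 were lower and 2 higher without overlap. The share over all probe sets with that flag is not given here. With single arrays left out, members without overlap were 20 to 37 lower and 7 to 29 higher, which fewer arrays favour by construction. Lower means then numbered 59 to 137 and higher means 48 to 126, the extremes coming from leaving out the replicate 1 array of one group or the other. Over all probe sets 1186 were higher and 1292 lower at an unadjusted p under 0.05, and 1627 and 846 with the pseudocount of 1.75. The members' median ran from -0.22 to 0.16 over single arrays left out and from -0.06 to -0.01 in the other alternatives. The higher Zfp397 probe set reversed to -0.33 as a mean over the gene's probe sets, which the lower one sets. Array weights were 0.468 and 0.369 for double-positive and double-negative replicate 1 and above 1 for the others. Named differences shrank with a pseudocount, that of Zfp52 to -0.86 and -0.40. The ratios keep no brightness, so signal over background limits remain unknown.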
